A study of Mus musculus with 9 samples.

Results

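The genes described here were listed as encoding enzymes that reduce viologen herbicides and carriers that move organic cations across cell membranes. Reduction of these herbicides by the product of Aox1 was not tested. The list held 9 genes, chosen by name with earlier results of these data known. It held the flavoprotein reductases Por, Cyb5r3 and Fdxr and the nitric oxide synthases Nos2 and Nos3. It also held the molybdenum hydroxylases Xdh and Aox1 and the transporters Slc47a1 and Abcb1a. Of the 9 genes, 7 had an array feature annotated with a single symbol, each by 1 feature, out of 22180 genes tested. Por and Fdxr were not analysed here. The measurements came from 9 Affymetrix Mouse Gene 2.1 ST arrays of TAMH cells, an immortalised hepatocyte line derived from mice carrying a transforming growth factor alpha transgene. Total RNA was taken after 9 h in medium alone (control), in diquat at 18 µM or in paraquat at 126 µM, with 3 arrays per group. All groups grew in a defined medium holding dexamethasone, nicotinamide, gentamicin, insulin, transferrin and selenium, so the controls carried the glucocorticoid too. The labels describe 3 dishes per treatment of this 1 line without saying whether these were independent cultures. The p-values therefore reflect only how far these samples scatter, which may be technical scatter.

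Diquat and paraquat are dications built from linked pyridine rings. Diquat joins its ring nitrogens through an ethylene bridge, and paraquat carries a methyl group on each of them. A flavoenzyme passes a single electron from NADPH or NADH to the herbicide, and the radical so formed hands it to oxygen as superoxide and is ready to be reduced again. In liver the main reductase named for this cycle is cytochrome P450 oxidoreductase, the product of Por, while the reductase domains of nitric oxide synthases, cytochrome b5 reductase, ferredoxin reductase and the flavin site of xanthine dehydrogenase are further electron donors. Entry and exit of the charged compounds depend on organic cation carriers, among them the extrusion protein MATE1 encoded by Slc47a1, and on the efflux pump P-glycoprotein encoded by Abcb1a.

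None of the 7 genes measured passed the test with either herbicide, and the widest change against control was 1.19-fold (Abcb1a with paraquat). Their log2 changes ran from -0.15 to 0.19 with diquat and from -0.20 to 0.26 with paraquat. The test was limma's moderated test with Benjamini-Hochberg adjustment over all 22180 genes, at a threshold of 0.05. It called 7.02% of all genes for diquat and 4.57% for paraquat, against 0 of these 7 in each comparison. At an unadjusted p under 0.05, 1 member stood out with diquat (Nos2) and 2 with paraquat (Xdh and Abcb1a), against 21.6% and 15% of all genes. The median log2 change of the 7 was -0.04 with diquat and -0.02 with paraquat, beside -0.02 and 0.00 over all genes. A p above the threshold does not show that a gene did not move, so each is given below with its values and its 95% interval, which is not adjusted for the number of genes.

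The promoter sequences of the measured members that stood highest above control, Abcb1a with both herbicides and Aox1 with diquat, are shown because they are the measured members with an entry in the RefSeq promoter table used here (4 of the 9 listed had an entry, and 2 of these were measured). Each run is the 250 bases before the RefSeq start on the plus strand of GRCm38.p6, at chr5:8566841-8567090 for Abcb1a and chr1:58029719-58029968 for Aox1, with motif matches in capitals.
Abcb1a: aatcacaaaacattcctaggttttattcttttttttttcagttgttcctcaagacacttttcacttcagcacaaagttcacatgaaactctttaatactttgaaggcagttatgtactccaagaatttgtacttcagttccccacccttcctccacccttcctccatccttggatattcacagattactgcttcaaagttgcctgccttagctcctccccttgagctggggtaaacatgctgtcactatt
Aox1: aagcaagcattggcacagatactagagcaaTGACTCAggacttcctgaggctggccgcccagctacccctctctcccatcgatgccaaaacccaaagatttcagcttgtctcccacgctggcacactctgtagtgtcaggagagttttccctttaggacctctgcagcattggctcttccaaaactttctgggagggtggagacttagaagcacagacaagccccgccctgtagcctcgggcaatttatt
Both strands were searched for 3 motifs of stress-response factors: the AP-1 site TGANTCA, the antioxidant response element core TGACNNNGC, and TGATGCAA, part of the element read by ATF4 with C/EBP proteins. Aox1 held 1 match, to the AP-1 letters, from 220 to 214 bases before the start, and the Abcb1a run held none. Over the 32851 promoters of the table, 6.75% held the AP-1 letters in these 250 bases, 10.2% the antioxidant core and 0.791% the ATF4 letters. A match is a string of letters, not a shown binding site.

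Of the flavoprotein reductases, Cyb5r3 was the member measured. It encodes the NADH-dependent reductase that reduces cytochrome b5 on the endoplasmic reticulum and the outer mitochondrial membrane. On the deposited log2 scale its control arrays read 11.69, 11.67 and 11.67, the diquat arrays 11.65, 11.67 and 11.68, and the paraquat arrays 11.66, 11.67 and 11.67. The 9 arrays spanned 0.04 log2 units and the groups overlapped, the narrowest span among the members. The log2 change was -0.01 ± 0.03 (SE) with each herbicide (limma adjusted p = 0.889 for diquat and 0.951 for paraquat). The interval ran from 0.95-fold to 1.04-fold in both comparisons.

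The nitric oxide synthases are diflavin enzymes whose reductase domain resembles the product of Por. Nos2, the inducible form, read 6.59, 6.55 and 6.52 in controls, 6.50, 6.43 and 6.43 with diquat, and 6.50, 6.53 and 6.43 with paraquat. All 3 diquat arrays lay below the lowest control array, while 2 of 3 paraquat arrays did. The means were 6.55 ± 0.04 in controls, 6.45 ± 0.04 with diquat and 6.49 ± 0.05 with paraquat (SD, n = 3 each). The log2 change was -0.10 ± 0.04 (SE) with diquat, with an interval from -0.19 to -0.01, an unadjusted p of 0.0326 and a limma adjusted p of 0.187. With paraquat it was -0.07 ± 0.04 (SE), with an interval from -0.16 to 0.02 (limma adjusted p = 0.533).

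Nos3, the endothelial form, read 6.14, 6.24 and 6.21 in controls, 6.16, 6.18 and 6.14 with diquat, and 6.21, 6.22 and 6.10 with paraquat. The groups overlapped, with paraquat replicate 3 alone below the lowest control, and the log2 changes were -0.04 ± 0.04 (SE) with diquat and -0.02 ± 0.04 with paraquat (limma adjusted p = 0.676 and 0.918). The intervals ran from -0.13 to 0.06 and from -0.12 to 0.08. The values of Nos2, Nos3 and Slc47a1 lay near the median of all features on an array, which was 5.95 to 6.04, and without detection calls they cannot be separated from background.

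The molybdenum hydroxylases oxidise purines, aldehydes and heterocyclic drugs. Xdh, which encodes xanthine dehydrogenase, read 9.06, 8.91 and 8.80 in controls, 8.70, 8.68 and 8.94 with diquat, and 8.81, 8.59 and 8.77 with paraquat. Only 2 of 3 arrays of either herbicide lay below the lowest control array, and diquat replicate 3 lay above the middle control. The means were 8.92 ± 0.13, 8.77 ± 0.14 and 8.72 ± 0.12 (SD, n = 3 each). The log2 change was -0.15 ± 0.09 (SE) with diquat, with an interval from -0.35 to 0.05 (limma adjusted p = 0.366). With paraquat it was -0.20 ± 0.09 (SE), with an interval from -0.397 to -0.00314, an unadjusted p of 0.0471 and a limma adjusted p of 0.322. The value rested in part on single arrays: it was -0.08 with diquat without control replicate 1, and -0.13 with paraquat without control replicate 1 or without paraquat replicate 2.

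Aox1, which encodes aldehyde oxidase, read 6.94, 7.00 and 7.03 in controls, 7.03, 7.04 and 7.20 with diquat, and 7.04, 7.03 and 6.95 with paraquat. Diquat replicate 3 was the highest of the 9 arrays, and the other two diquat arrays lay at or within 0.01 of the highest control. The log2 change was 0.10 ± 0.05 (SE) with diquat (interval -0.02 to 0.22; limma adjusted p = 0.306) and 0.04 without diquat replicate 3. That array stood farthest from its group mates over all genes, with a root-mean-square difference of 0.134 against 0.0714 to 0.115 for the rest. With paraquat the change was 0.02 ± 0.05 (SE; interval -0.10 to 0.13; limma adjusted p = 0.952).

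Of the transporters, Slc47a1, whose product exchanges organic cations for protons and is known to carry paraquat, read 6.01, 6.13 and 6.07 in controls, 6.01, 6.01 and 5.98 with diquat, and 6.04, 6.02 and 5.92 with paraquat. The groups overlapped. The log2 changes were -0.07 ± 0.04 (SE) with diquat and -0.08 ± 0.04 with paraquat (limma adjusted p = 0.404 and 0.506). The intervals ran from -0.17 to 0.03 and from -0.18 to 0.02.

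Abcb1a, 1 of the mouse genes for P-glycoprotein, had the largest change and the widest spread of the members. Its control arrays read 7.42, 7.43 and 7.23, the diquat arrays 7.75, 7.40 and 7.50, and the paraquat arrays 7.52, 7.58 and 7.75. All 3 paraquat arrays lay above the highest control, and 2 of 3 diquat arrays did. The means were 7.36 ± 0.11, 7.55 ± 0.18 and 7.62 ± 0.12 (SD, n = 3 each). The log2 change was 0.19 ± 0.09 (SE) with diquat, with an interval from 0.99-fold to 1.32-fold (limma adjusted p = 0.28). With paraquat it was 0.26 ± 0.09 (SE), with an interval from 1.03-fold to 1.38-fold, an unadjusted p of 0.0212 and a limma adjusted p of 0.206. Without control replicate 3, the lowest array, the values were 0.13 and 0.19, and without diquat replicate 1 that of diquat was 0.09.

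Abcb1b, the second P-glycoprotein gene of the mouse and a close sequence relative, is listed here for comparison: its log2 change was -0.04 ± 0.05 (SE) with diquat and 0.03 ± 0.05 with paraquat (limma adjusted p = 0.732 and 0.892). Whether probes of either gene also capture RNA of the other was not tested.

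Counted by arrays, 1 of the 7 members did not overlap its controls with diquat (Nos2, lower) and 1 with paraquat (Abcb1a, higher). Over all genes the share of groups that did not overlap was 21.3% for diquat and 19.4% for paraquat.

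**Figure D1:**
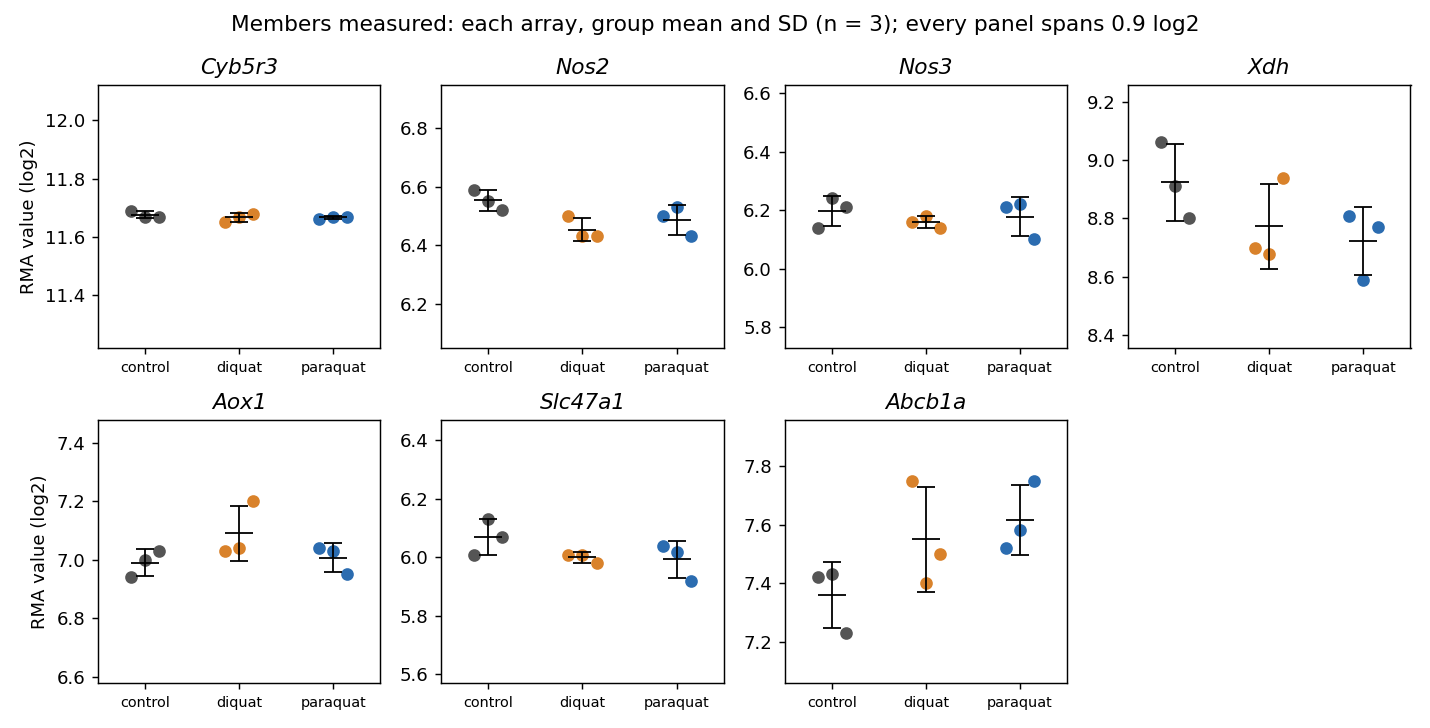
Array values (log2, vertical axis) of the 7 measured members in control, diquat and paraquat cells. Points are single arrays, and the bar with whiskers is the mean and SD of 3 arrays; every panel spans the same log2 width. Cyb5r3 varies by 0.04 over the 9 arrays, while Abcb1a and Xdh vary by 0.52 and 0.47.

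**Figure D2:**
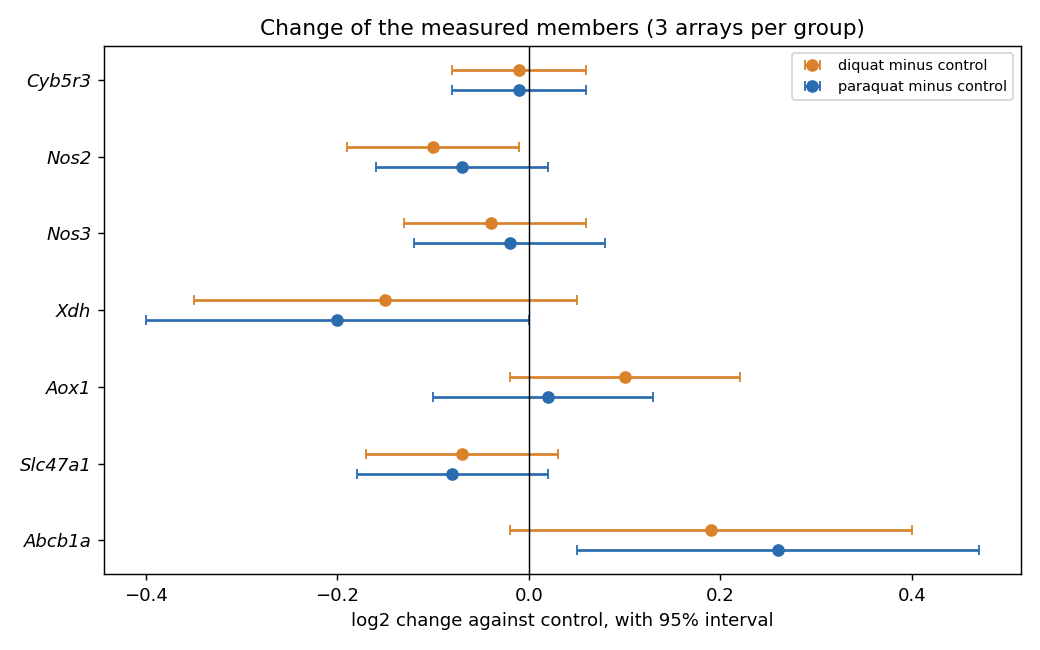
Log2 change against control (horizontal axis) of each member for diquat and paraquat, with limma's 95% interval, 3 arrays per group. The intervals of Nos2 with diquat and of Xdh and Abcb1a with paraquat lie to one side of 0 before adjustment over all genes, and no member passes after it.

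The herbicides were also set against each other, at doses that differ (18 and 126 µM), so a difference or its absence belongs to these exposures and not to the compounds at a shared dose. No member passed for paraquat minus diquat, none had an unadjusted p under 0.05, and none had arrays that did not overlap. Over all genes 0% passed after adjustment, 10.7% had an unadjusted p under 0.05, and 10.5% had groups that did not overlap. The difference was widest for Aox1 at -0.08 ± 0.05 on the log2 scale (SE; interval -0.20 to 0.03; limma adjusted p = 0.572) and Abcb1a at 0.07 ± 0.09 (interval -0.14 to 0.28; limma adjusted p = 0.808). The narrowest interval was that of Cyb5r3, from -0.07 to 0.07. For Nos2 and Nos3 it ran from -0.06 to 0.12 and from -0.08 to 0.11, for Xdh from -0.25 to 0.15, and for Slc47a1 from -0.11 to 0.09.

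Relatives and partners of these enzymes and carriers formed 8 wider lists, with 90 genes measured of 101 entries, written with earlier results of these data known. With diquat 15 of the 90 rose and 4 fell, beside 4.13% and 2.89% of all genes. The falls moved with scaling: with array medians set equal 15 rose and 1 fell, and 14 rose and 8 fell after quantile normalization. With paraquat 9 rose and 2 fell, beside 2.33% and 2.24% of all genes. The same shares of all genes apply to the counts of the single lists below. The median change of the 90 was -0.02 and 0.00, equal to that of all genes. The count for diquat was 12 without control replicate 1 or without control replicate 2, and that for paraquat was 18 with array quality weights. No gene of these lists passed between the herbicides by limma's adjusted p. An unadjusted p under 0.05 was found for 14 of 90, beside 10.7% of all genes.

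Among 15 other flavin reductases, 3 rose and 1 fell with diquat, and 2 rose and 1 fell with paraquat. Cyb5r1, a relative of Cyb5r3, stood at 8.69, 8.60 and 8.70 in controls, 8.97, 8.90 and 9.02 with diquat, and 9.10, 9.05 and 9.17 with paraquat. Every treated array lay above every control, and the rise was 1.23-fold and 1.36-fold (log2 0.30 ± 0.05 and 0.44 ± 0.05, SE; limma adjusted p = 0.00471 and 0.00062). Paraquat minus diquat was 0.14 for this gene (limma adjusted p = 0.401). The cytosolic thioredoxin reductase gene Txnrd1 rose by 0.42 and 0.21 on the log2 scale. Txnrd3, a testis-enriched relative, rose 1.42-fold with diquat and changed by 0.31 with paraquat without passing (limma adjusted p = 0.0711). The control mean of Txnrd3, 5.75, lay under the median of all features, and without detection calls that level cannot be separated from background. Etfdh, which feeds electrons from fatty acid oxidation to ubiquinone, fell 1.21-fold with paraquat. Its fall of 1.15-fold with diquat (limma adjusted p = 0.0286) was lost under 7 of 17 alternatives, with an adjusted p of 0.101 without control replicate 3, 0.0843 and 0.0641 when control replicate 1 or 2 was left out, and 0.0934 and 0.056 when diquat replicate 1 or 2 was. Nqo1, which encodes a reductase that transfers electrons in pairs, changed by -0.04 and 0.11 and did not pass. Its control mean of 5.46 lay under the median of all features, and without detection calls it cannot be separated from background.

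The list of nitric oxide synthase cofactor and substrate genes held 15 measured members, of which 3 rose with diquat and 2 with paraquat, and none fell. Gch1, the first enzyme of tetrahydrobiopterin synthesis, stood at 7.64, 7.44 and 7.57 in controls, 8.25, 8.06 and 8.28 with diquat, and 7.97, 7.97 and 8.19 with paraquat. It rose 1.57-fold and 1.41-fold (log2 0.65 ± 0.08 and 0.49 ± 0.08, SE; limma adjusted p = 0.00103 and 0.00617). Slc7a1, an importer of arginine, rose 1.64-fold and 1.67-fold, from 9.53 to 10.25 and 10.27 (limma adjusted p = 2.72e-05 and 2.17e-05). Slc7a2, another arginine importer, rose by 0.28 with diquat (limma adjusted p = 0.0194), a call lost without any of control replicates 1, 2 or 3 (0.067, 0.0723 and 0.0622). Nos2 and Nos3 themselves did not pass, as given above.

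Of 11 other molybdenum enzyme and cofactor genes, 1 fell with each herbicide and none rose. That gene was Mtarc1, a mitochondrial reductase of N-hydroxylated compounds, at 7.62, 7.56 and 7.43 in controls, 7.13, 7.16 and 7.02 with diquat, and 7.08, 7.08 and 7.01 with paraquat. It was 1.35-fold and 1.39-fold lower (limma adjusted p = 0.00134 and 0.000969). The mouse aldehyde oxidase relatives Aox2, Aox3 and Aox4 changed by -0.05, 0.02 and -0.09 with diquat and did not pass. Their control means of 5.94, 5.37 and 5.02 lay under the median of all features. Of 8 genes of electron acceptors and flavin supply, the heme oxygenase gene Hmox1, whose product draws electrons from the Por enzyme, was the one that rose (log2 0.72 and 0.57). None of 10 NADPH oxidase genes passed with either herbicide by limma. By limma's unadjusted p under 0.05 there were 2 with each, beside 21.6% of all genes with diquat and 15% with paraquat. The nearest with paraquat was Nox4, at -0.22 (limma adjusted p = 0.0629), with -0.14 (0.198) for diquat. With diquat it was Nox1, at -0.11 (limma adjusted p = 0.0789), with -0.03 (0.762) for paraquat. The control mean of Nox1 was 5.43, under the median of all features.

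Of 15 genes measured in the list of other cation, polyamine and metal transporters, 4 rose with diquat and 2 with paraquat. Those that rose with paraquat were Slc7a5 and Slc3a2, the subunits of a large neutral amino acid exchanger. Slc7a5 and Slc3a2 rose by 0.47 and 0.27 with diquat and by 0.47 and 0.28 with paraquat. The Slc3a2 calls were lost without control replicate 2 (limma adjusted p = 0.0614 and 0.0658), and that of paraquat also without control replicate 3 or paraquat replicate 2 (0.0503 and 0.0568). That of diquat was also lost in the fit without the paraquat group (limma adjusted p = 0.0546). The copper pump gene Atp7a, which a published genetic screen linked to paraquat toxicity together with Por and Slc45a4, read 8.91, 9.05 and 8.94 in controls and 9.19, 9.18 and 9.13 with diquat. It rose 1.15-fold with diquat (limma adjusted p = 0.0264), a call lost under 6 of 17 alternatives. Those included leaving out control replicate 1 or 3 (limma adjusted p = 0.106 and 0.0912) or diquat replicate 1 or 2 (0.084 and 0.0526). With paraquat it read 9.00, 8.97 and 8.91, a change of -0.01 ± 0.05 (SE; limma adjusted p = 0.978). The difference between the herbicides was -0.21 ± 0.05 (SE) and did not pass (limma adjusted p = 0.309). Atp13a3, a polyamine pump gene, rose by 0.18 with diquat (limma adjusted p = 0.0311), lost without any 1 of the control arrays (0.0745, 0.0985 and 0.103) and without diquat replicate 1 or 3 (0.0648 and 0.0629). The Atp13a3 call was also lost with the replicate block and in the fit without the paraquat group (limma adjusted p = 0.0563 and 0.0751). Slc45a4 changed by 0.04 with each and did not pass.

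Of 10 other ABC efflux pumps, 3 rose and 1 fell with diquat, and 2 rose with paraquat. The conjugate exporters Abcc4 and Abcc2 rose by 0.57 and 0.29 with diquat and by 0.46 and 0.25 with paraquat. Abcc1 rose by 0.26 with diquat (limma adjusted p = 0.00431) and changed by 0.12 with paraquat without passing (0.157). The bile salt exporter gene Abcb11 fell by 0.21 with diquat, from 5.40, a value under the median of all features, and lost its call without control replicate 1 or 2 (limma adjusted p = 0.0585 and 0.0615). The Abcb11 call was also lost with array medians set equal (limma adjusted p = 0.0534). Of 6 xenobiotic regulators, the aryl hydrocarbon receptor gene Ahr rose by 0.25 and Hnf4a fell by 0.19 with diquat. The Ahr call (limma adjusted p = 0.0279) was lost without any 1 of the control arrays (0.0711, 0.0971 and 0.0928) or diquat replicate 1 or 2 (0.0868 and 0.0569). That of Hnf4a stood at an adjusted p of 0.05 after rounding and was lost under 9 of 17 alternatives, among them the fits without each of the control arrays (0.157, 0.175 and 0.0564), without each of the diquat arrays (0.115, 0.0857 and 0.0871) and without paraquat replicate 2 (0.0772).

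**Figure D3:**
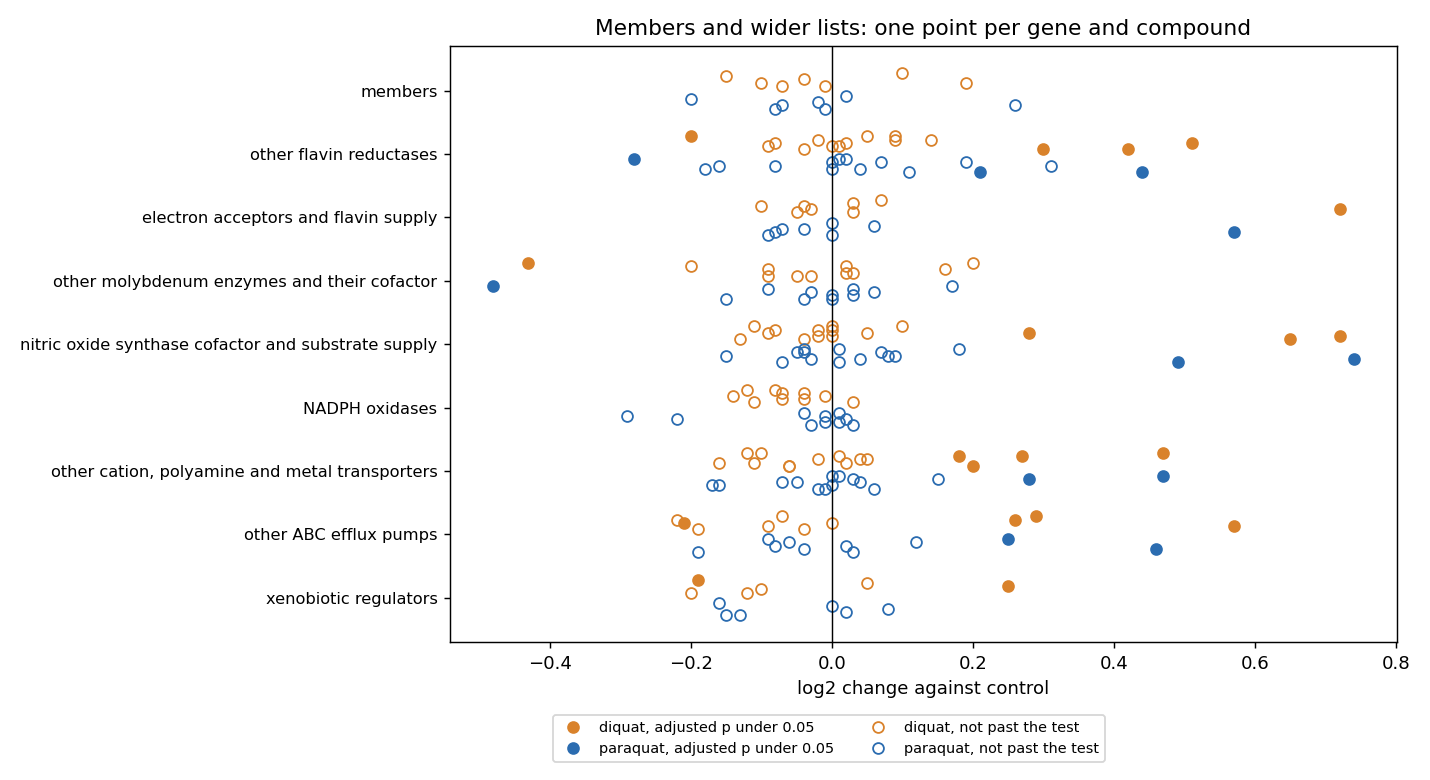
Log2 change against control (horizontal axis) for every measured gene of the member list and of the 8 wider lists, 1 point per gene and herbicide. Filled points passed limma's adjusted p of 0.05 and open points did not; all member points are open, and the filled points of the other rows reach 0.74.

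Markers of hepatocytes and of other liver cells were read in the same arrays. Values of different features are not comparable as amounts of RNA, so these levels describe the arrays and do not settle the cell type. Means over the 9 arrays lay between 10.63 and 12.73 for 7 hepatocyte markers, 7.67 and 10.48 for 4 cholangiocyte markers, 5.76 and 9.06 for 6 stellate and fibroblast markers, 5.32 and 7.87 for 7 macrophage markers and 5.29 and 6.23 for 7 endothelial markers. The highest cholangiocyte marker was Sox9 and the highest fibroblast marker Col1a1, at 10.48 and 9.06.

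Several of these markers passed the test with a herbicide. Over all genes the test called 7.02% with diquat and 4.57% with paraquat. Of the 7 hepatocyte markers 3 fell with diquat and 1 with paraquat. Ttr fell by 0.34 and 0.32 on the log2 scale, and with diquat Apob fell by 0.19 and Hnf4a as given above. With diquat the others did not pass: Apoa1 changed by -0.16, Alb by -0.01, Krt8 by 0.04 and Krt18 by 0.10. With paraquat the means of Apoa1, Apob and Hnf4a were 10.64, 11.01 and 10.58, against 10.86, 11.15 and 10.74 in controls. Those of Alb, Krt8 and Krt18 were 12.73, 11.98 and 11.61, against 12.73, 11.95 and 11.54, and none of these passed. By array, hepatocyte markers averaged 11.44 to 11.51 in controls, 11.36 to 11.39 with diquat and 11.34 to 11.41 with paraquat. Of the 4 cholangiocyte markers 3 passed with diquat and 1 with paraquat. Sox9 rose by 0.45 and 0.39, while Krt7 and Krt19 fell by 0.29 and 0.16 with diquat. Epcam changed by 0.02 with diquat without passing. In paraquat arrays Krt7, Krt19 and Epcam averaged 8.85, 8.25 and 7.67, against 8.96, 8.31 and 7.66 in controls, and none passed. Of the 7 markers of macrophages, cells known for Nos2, 1 passed with diquat and 0 with paraquat. Cd68 rose by 0.40 with diquat, while Lyz2 and Csf1r changed by -0.21 and -0.13 without passing. In paraquat arrays Cd68, Lyz2 and Csf1r averaged 7.98, 5.71 and 6.23, against 7.62, 5.71 and 6.18 in controls, and none passed. None of the endothelial markers, cells in which Nos3 is typically active, and none of the stellate markers passed by limma. Col1a1 was close to the threshold with diquat, at -0.21 (interval -0.33 to -0.08, limma adjusted p = 0.0514). The other stellate and fibroblast markers changed by -0.11 to 0.04 with diquat. The calls of Apob (limma adjusted p = 0.0205), Cd68 (0.0343) and Krt19 (0.0383) were each lost when single arrays were left out. For Apob those were control replicate 1 or 2 and diquat replicate 1 (0.0645, 0.0809 and 0.0659). For Cd68 they were control replicate 2 or 3, diquat replicate 2 or 3, and each paraquat array (0.0506 to 0.103). For Krt19 they were each control array, diquat replicate 2 or 3, and each paraquat array (0.0557 to 0.132). With array medians set equal the Apob and Krt19 calls were lost (limma adjusted p = 0.0938 and 0.186). All 3 were lost in the fit without the paraquat group (0.0647 for Apob, 0.107 for Cd68 and 0.0911 for Krt19). The Cd68 call was also lost with array quality weights (0.085), and that of Krt19 with the replicate block (0.0562). The mean of the macrophage markers was 6.23 to 6.25 in control arrays, 6.15 to 6.26 with diquat and 6.27 to 6.33 with paraquat, and that of the endothelial markers 5.74 to 5.80, 5.64 to 5.75 and 5.75 to 5.79. The part of these markers in the values of Nos2 and Nos3 was not tested. An array averages the RNA of a dish, so fewer cells of a type and less RNA per cell cannot be told apart.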

How the data were processed

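The deposited table gives log2 values of 34472 features on 9 arrays. Per the submitters' processing notes, the authors made these log2 values with Affymetrix Expression Console 1.1 and RMA, a method of background correction, quantile normalization and probe summary; neither its settings nor the annotation build is given in the sources used here. RMA pulls low values together, so changes of dim genes are understated; precision is limited by the 3 arrays per group. Groups and replicate numbers come from sample titles.

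Genes were taken from features with 1 symbol in the platform annotation (23521 features), keeping for each gene its feature of highest mean, which left 22180 genes. All 9 arrays entered 1 fit in limma 3.58.1 (R 4.3.3; lmFit and eBayes, 1 mean per group, no covariates), with Benjamini-Hochberg adjustment over all genes. All 7 measured members matched their RefSeq Entrez identifier. The members and lists were chosen with earlier results of these data known. Named were all members and, from each wider list, up to 4 genes past the test by smallest adjusted p, or the nearest if none passed, with Abcb1b, Txnrd1, Nqo1, Atp7a and Slc45a4 in any case (1 further gene of this rule is not reported here); Aox1's relatives Aox2, Aox3 and Aox4, Nox1 and the markers named were added after their values were seen. The genes most alike in pattern were to be named for members past the test, and none passed. Alternatives were the replicate block, a robust prior with an intensity trend, a filter at a mean of 5, median centring, quantile normalization, fits without the group not compared, averaged features, array weights and leaving out each array. The fit was tested on simulated data.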

Additional observations from a re-analysis of the deposited data

How the results depend on the processing

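The count of members past the test was 0 in each of the 3 comparisons under all 17 alternatives, and no member passed in any of them; the lowest adjusted p was 0.112, for Abcb1a with paraquat. Abcb1a ranged from 0.09 to 0.26 on the log2 scale with diquat and from 0.19 to 0.30 with paraquat, Xdh from -0.23 to -0.08 and from -0.26 to -0.13, and Nos2 from -0.12 to -0.06 and from -0.09 to -0.04. Leaving out 1 array moved the diquat count of the wider lists between 12 and 21 of 90, and array quality weights raised the paraquat count from 11 to 18; the cause was not tested. Of the 19 wider genes called with diquat, 11 were called under every alternative, and of the 11 called with paraquat, 10 were. Same-numbered arrays of different groups had correlations of deviations between -0.19 and 0.20, and differently numbered ones between -0.33 and 0.28. The replicate numbers were not treated as pairs, because the labels name no batch and 4 descriptions give another number than the title. With the replicate block, 16 wider genes passed for diquat, 11 for paraquat and 0 members in any comparison. No detection calls were used, so the values of Nos2, Nos3 and Slc47a1 near the array median are limited by background.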
